A study of Homo sapiens with 8 samples.

Results

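CDK inhibitors and genes of the p53 response are described here in leukaemia cells with lowered METTL14. The set is 10 genes, chosen by symbol from 16726 genes listed for both cell lines. It holds CDKN1A, CDKN1B and CDKN1C of the CIP/KIP family, CDKN2C and CDKN2D of the INK4 family, the antiproliferative genes BTG1 and BTG2, and the p53 response genes GADD45A, MDM2 and DDB2. All 10 were found in both tables, which give symbols and gene IDs but no coordinates: CDKN1A (1026), CDKN1B (1027), CDKN1C (1028), CDKN2C (1031), CDKN2D (1032), BTG1 (694), BTG2 (7832), GADD45A (1647), MDM2 (4193) and DDB2 (1643). Poly(A) RNA was sequenced from 4 groups of 2 libraries: NB4 cells with the METTL14 hairpin (shM14, labelled shM14-#2), NB4 cells with the non-specific hairpin (shNS), MM6 cells with shM14 and MM6 cells with shNS. All 4 groups carried a lentiviral pLKO.1 hairpin and were kept in 0.5 µg/mL puromycin for 2 passages. Knockdown rested on a single METTL14 hairpin. Nothing states that the libraries of a group came from different cultures, and their spread, which sets every p-value here, may be technical. NB4 is known as a promyelocytic line and MM6 (MonoMac 6) as a monocytic line; the labels name the same disease, acute monocytic leukemia, for the 2 lines. METTL14 works together with METTL3 in depositing the RNA mark N6-methyladenosine (m6A).

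Cyclin-dependent kinases drive cells through the division cycle, and CDK inhibitors hold them back. CIP/KIP proteins bind complexes of cyclins with several kinases, whereas INK4 proteins bind CDK4 and CDK6 and keep D-type cyclins away. The transcription factor p53 is known to activate CDKN1A, BTG2, GADD45A, MDM2 and DDB2 after DNA damage, and the MDM2 protein in turn marks p53 for destruction. In myeloid cells, arrest by CDK inhibitors accompanies terminal maturation.

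Levels are given as RPKM (reads per kilobase of gene model, scaled to the reads of the library that were assigned to genes), so they can be set side by side between genes. Depth was 23272126 to 28814911 reads per library. METTL14 had 8.35 and 8.35 RPKM in NB4 shM14, against 14.1 and 12.5 RPKM in NB4 shNS. In MM6 it had 6.54 and 6.55 RPKM with shM14, against 12.5 and 13.4 RPKM with shNS. The hairpin groups did not overlap in either line. METTL14 passed in NB4 (log2 change -0.61, limma adjusted p = 0.0024) but not in MM6 tested alone (-0.88, limma adjusted p = 0.088; 0.0032 with all 4 groups in 1 model). The 8 promyelocyte markers summed to 2364 to 2406 RPKM in NB4 shM14, 2646 to 2750 in NB4 shNS, 4733 to 5163 in MM6 shM14 and 4536 to 4728 in MM6 shNS. The 10 monocyte markers summed to 206.8 to 207 RPKM in NB4 shM14, 117 to 129 in NB4 shNS, 8475 to 14722 in MM6 shM14 and 6107 to 9485 in MM6 shNS. In the MM6 shM14 library with the highest sum, 1 marker alone reached 14301 RPKM, so that sum says little of the other markers. Of the monocyte markers, FCN1 was at 0 in 3 of the 4 MM6 libraries. In NB4, 6 of 8 tested monocyte markers rose and 0 fell, and 1 of 8 promyelocyte markers rose and 6 fell; in MM6, 0 of 9 and 0 of 8 passed in limma. Of all tested genes in NB4, 22.1% rose and 25.2% fell. In such bulk RNA, more cells of a type and more RNA per cell cannot be told apart. The part of these markers in the results for the members was not tested. The MM6 replicates lay further apart than those of NB4. Across tested genes the SD of the difference between the libraries of a group was 0.38 in MM6 shM14 and 0.35 in MM6 shNS on the log2 scale, and 0.13 in NB4 shM14 and 0.15 in NB4 shNS. Marker genes of other tissues reached at most 23.8 RPKM in any library (5 of 11 were listed, and of 3 tested in NB4, 1 rose and 1 fell).

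In NB4, the members split by gene rather than moving as a set. BTG2, CDKN2D, MDM2 and CDKN1A rose, and DDB2, CDKN1C and BTG1 fell. CDKN1B, CDKN2C and GADD45A did not pass the threshold. The test was limma on log2(RPKM + 1), 2 libraries against 2, with Benjamini-Hochberg adjustment over all tested genes and a threshold of 0.05; changes are shM14 minus shNS. Thus 7 of 10 members passed, where 47.4% of the 11531 tested genes did, 22.1% upwards and 25.2% downwards. CDKN1C entered this test only through its shNS libraries, the higher group. With a filter of 5 RPKM it was not tested, and 6 of 9 members and 4555 of 8363 genes passed. The members had a median size of change of 0.35 on the log2 scale, against 0.18 over all tested genes, and their median change was -0.01, against -0.01 over all tested genes. Members were chosen with earlier results of these data known, so such comparisons with all genes are descriptions and no test of the set. The groups of all 10 members did not overlap in NB4, as was the case for 77.2% of tested genes. With all 4 groups in 1 limma model, whose spread includes that of MM6, CDKN2D, CDKN1C and DDB2 passed (adjusted p = 0.026, 0.035 and 0.020), and MDM2, BTG1, BTG2 and CDKN1A did not (0.35, 0.57, 0.62 and 0.82). In the authors' deposited table of NB4, 7 members are under 0.05 in adjusted p, 4 of them higher and 3 lower. So are 7293 of its 16726 genes (43.6%).

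In MM6, 0 of the 9 tested members passed, where 0.0757% of 11895 tested genes did, 0.0504% upwards and 0.0252% downwards. None of these 9 had an unadjusted p under 0.05 there, whereas 1779 of all tested genes did. Voom on recovered reads and 1 limma model of all 4 groups also called 0 members. The model of 4 groups called 1311 genes in MM6 in place of 9, so the background depends on the model. With replicate number added to the limma model (the replicate block), 1 member, CDKN1A (adjusted p = 0.021), and 1405 genes passed. No label states such a pairing. CDKN1C was too low in MM6 to be tested. The groups of 2 members, CDKN1C and CDKN2D, did not overlap in MM6, whereas the groups of 44.8% of tested genes did not. The authors' deposited table of MM6 has 0 members under 0.05 in adjusted p, where 548 of its 16726 genes (3.28%) are.

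**Figure D1:**
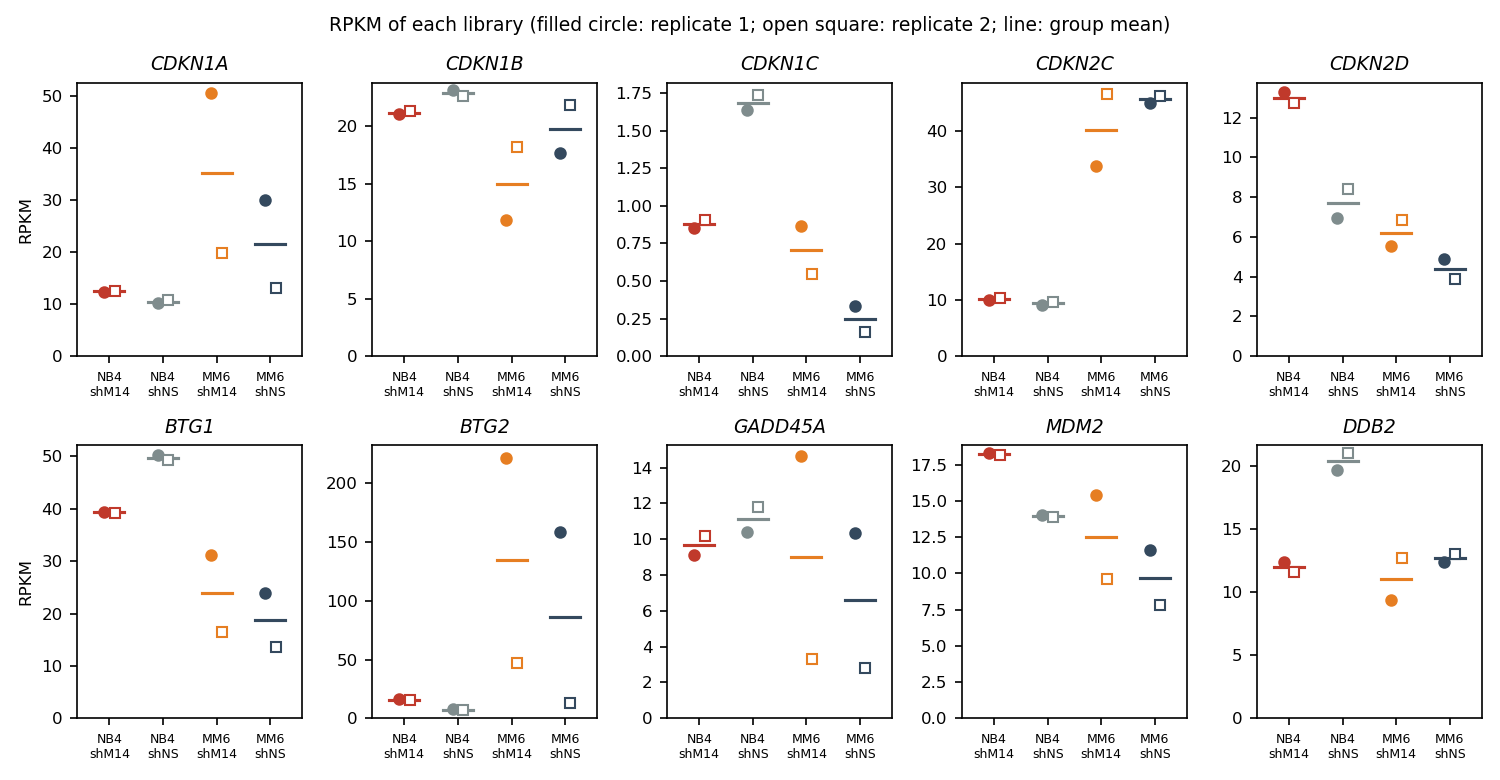
RPKM of the 10 members in each library (vertical axis from 0), by group; the filled circle is replicate 1, the open square replicate 2 and the line the group mean. In NB4 the libraries of a group lie close together, whereas BTG2 in MM6 shNS spans 13.2 to 159 RPKM.

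The order of levels differed between the lines. In NB4, BTG1 was the most abundant member, at 39.3 ± 0.175 RPKM with shM14 and 49.8 ± 0.738 RPKM with shNS (SD, n = 2 each), followed by CDKN1B. With shM14, CDKN2D, CDKN1A and DDB2 followed each other within about their spread, with SDs of 0.381, 0.0757 and 0.535 RPKM. With shNS, DDB2 stood behind CDKN1B at 20.3 ± 0.991 RPKM and BTG2 last but one at 7.45 ± 0.202 RPKM (SD, n = 2 each). The place of BTG2 was within the spread of CDKN2D, which had 7.69 ± 1.06 RPKM (SD, n = 2). In MM6, BTG2 had the highest mean in both groups, but its SD, 123 RPKM in shM14 and 103 RPKM in shNS, was about as large as the mean. CDKN2C followed at 40.2 ± 9.14 RPKM in MM6 shM14 and 45.7 ± 0.861 RPKM in MM6 shNS (SD, n = 2 each). CDKN1C was the lowest member in all 4 groups.

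Among the CIP/KIP genes, CDKN1A rose in NB4. It encodes p21, an inhibitor of cyclin-CDK complexes and the classical arrest target of p53. CDKN1A had 12.4 and 12.5 RPKM in NB4 shM14, against 10.1 and 10.7 RPKM in NB4 shNS (967 and 865 reads, against 663 and 862 reads). The higher group was separate, and the change was 0.23 (SE 0.05, limma adjusted p = 0.016). It was no longer past the threshold without either of the shM14 libraries (adjusted p = 0.0805 without replicate 1 and 0.0874 without replicate 2). In MM6, CDKN1A had 50.5 and 19.8 RPKM with shM14, against 29.9 and 13.1 RPKM with shNS. The groups overlapped, replicate 1 was higher than replicate 2 with either hairpin, and the interval of the change ran from -0.70 to 1.99.

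CDKN1B, which encodes p27, the inhibitor of CDK2 complexes that accumulates in quiescent cells, had 21.0 and 21.3 RPKM in NB4 shM14, against 23.2 and 22.6 RPKM in NB4 shNS. The shM14 values were the lower ones, by -7.60% in the means, and the change of -0.11 did not pass (95% interval -0.23 to 0.01, limma adjusted p = 0.11). In MM6 it had 11.8 and 18.2 RPKM with shM14, against 17.7 and 21.8 RPKM with shNS. These groups overlapped (change -0.40, limma adjusted p = 0.52).

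CDKN1C encodes p57, an inhibitor expressed from an imprinted locus. It had 0.855 and 0.907 RPKM in NB4 shM14, against 1.64 and 1.74 RPKM in NB4 shNS (85 and 80 reads, against 136 and 178 reads). In MM6 it had 0.868 and 0.544 RPKM with shM14, against 0.331 and 0.162 RPKM with shNS (88 and 45 reads, against 28 and 15 reads). The hairpin groups did not overlap in either line, and the direction was opposite. In NB4 the gene fell by 0.51 on the log2(RPKM + 1) scale (limma adjusted p = 0.0017), a scale that understates changes of low genes, and the fold of mean RPKM was 0.522. It entered the NB4 test only through its shNS libraries, both above 1 RPKM; without a filter the limma adjusted p was 0.0083. In MM6 it did not reach the filter, and the fold of mean RPKM was 2.87. Without a filter the MM6 change was 0.45 (95% interval 0.03 to 0.87, limma unadjusted p = 0.042 and adjusted p = 0.33). In the authors' deposited table CDKN1C has log2 fold changes of -0.91 in NB4, with an adjusted p of 1.5e-08, and 1.57 in MM6, with one of 0.053.

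Of the INK4 genes, CDKN2D rose in NB4 and CDKN2C did not pass. CDKN2D, which encodes p19, had 13.3 and 12.7 RPKM in NB4 shM14, against 6.94 and 8.43 RPKM in NB4 shNS. The groups were well apart (change 0.69, SE 0.09, limma adjusted p = 0.0040). In MM6 it had 5.52 and 6.87 RPKM with shM14, against 4.86 and 3.89 RPKM with shNS. These groups did not overlap either, although the change of 0.42 did not pass (95% interval -0.01 to 0.85, limma adjusted p = 0.34).

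CDKN2C, which encodes p18, had 9.90 and 10.3 RPKM in NB4 shM14, against 9.15 and 9.63 RPKM in NB4 shNS (change 0.10, 95% interval -0.03 to 0.23, limma adjusted p = 0.18). Its level in MM6 was several times that of NB4, with 33.7 and 46.7 RPKM with shM14, against 45.1 and 46.3 RPKM with shNS. The MM6 groups overlapped (change -0.20, limma adjusted p = 0.72). Between the controls, the mean of CDKN2C was 4.86-fold higher in MM6 than in NB4, a description of levels scaled per library in separate tables. The other INK4 genes stood apart by line. CDKN2A, which encodes p16 and, from another reading frame, ARF, had 69.4 and 97.0 RPKM in MM6 shM14 and 91.8 and 107 RPKM in MM6 shNS. It was listed at 0 in both NB4 shM14 libraries and in NB4 shNS replicate 1, and had 0.0156 RPKM in NB4 shNS replicate 2. CDKN2B, the neighbouring INK4 gene, was listed at 0 in all 4 NB4 libraries and had means of 1.57 RPKM in MM6 shM14 and 1.40 RPKM in MM6 shNS.

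The BTG genes moved in opposite directions in NB4. BTG1 and BTG2 encode related antiproliferative proteins that bind the CAF1 deadenylases of the CCR4-NOT complex. BTG2 had 16.6 and 15.4 RPKM in NB4 shM14, against 7.59 and 7.31 RPKM in NB4 shNS. The mean was 2.15-fold that of the control (change 1.01, SE 0.06, limma adjusted p = 5.1e-04), the widest shift among the members in NB4. BTG1 had 39.4 and 39.2 RPKM in NB4 shM14, against 50.3 and 49.2 RPKM in NB4 shNS. It fell by 0.33 on the log2 scale (limma adjusted p = 0.0044), or -21.0% in mean RPKM.

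In MM6 the BTG genes followed the replicate number. BTG2 had 222 and 47.5 RPKM in MM6 shM14, against 159 and 13.2 RPKM in MM6 shNS. Replicate 1 was the higher library with either hairpin, and the interval of the change ran from -2.01 to 4.25 (change 1.12, limma adjusted p = 0.76). BTG1 had 31.2 and 16.5 RPKM in MM6 shM14, against 23.9 and 13.5 RPKM in MM6 shNS. Again both replicate 1 libraries were above both replicate 2 libraries (change 0.32, limma adjusted p = 0.78).

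MDM2 and DDB2, both p53 targets, parted in NB4. MDM2, which encodes the ubiquitin ligase of p53, had 18.3 and 18.1 RPKM in NB4 shM14, against 14.0 and 13.9 RPKM in NB4 shNS. It rose by 0.37 (SE 0.04, limma adjusted p = 0.0032). DDB2, which encodes the damage-binding subunit that recognises ultraviolet lesions for nucleotide excision repair, had 12.4 and 11.6 RPKM in NB4 shM14, against 19.6 and 21.0 RPKM in NB4 shNS. It fell by 0.72 (SE 0.06, limma adjusted p = 0.0012), or -41.1% in mean RPKM. In the annotation of GENCODE 29, MDM2 overlaps CPM on the other strand, whose means were 0.836 RPKM in NB4 shM14 and 0.755 RPKM in NB4 shNS. CDKN1A, BTG1, MDM2 and DDB2 overlap non-coding antisense genes that the tables do not list. CDKN1B, BTG1 and MDM2 also overlap unlisted entries on their own strand. The kit was directional, but no source used here gives the strand used in counting, so reads of such partners may be shared.

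MDM2 and DDB2 moved oppositely in NB4, and their promoter windows, the ones among the members with a match or near match to a p53 element, are shown. The sequences are from RefSeq (GRCh38.p14), plus strand, 250 bases before to 50 after a start site, and the capitals mark the match in DDB2 and the near match in MDM2. A p53 element is a pair of repeats of 10 bases, each matching the p53 repeat consensus, searched here with a spacer of up to 13 bases.
DDB2 chr11:47214724-47215023: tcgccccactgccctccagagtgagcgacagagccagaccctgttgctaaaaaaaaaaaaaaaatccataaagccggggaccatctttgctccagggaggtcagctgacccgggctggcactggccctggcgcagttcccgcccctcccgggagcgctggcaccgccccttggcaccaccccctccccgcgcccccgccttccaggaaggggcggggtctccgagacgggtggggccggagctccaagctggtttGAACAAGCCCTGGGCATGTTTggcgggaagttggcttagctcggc
MDM2 chr12:68808767-68809066: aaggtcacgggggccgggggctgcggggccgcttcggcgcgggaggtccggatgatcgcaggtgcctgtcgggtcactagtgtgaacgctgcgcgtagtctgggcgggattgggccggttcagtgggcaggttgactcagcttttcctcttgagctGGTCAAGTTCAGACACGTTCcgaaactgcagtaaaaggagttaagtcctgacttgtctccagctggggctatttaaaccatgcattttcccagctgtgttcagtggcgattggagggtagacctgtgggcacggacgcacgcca

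The DDB2 match, at bases 256 to 276 of its window, held 2 exact repeats. Such an exact pair was found in 0.0285% of all 35116 promoter windows of the same length. The MDM2 near match, at bases 157 to 176, was an adjacent pair with 1 mismatch to the consensus in each repeat, and pairs with at most 1 mismatch per repeat were found in 0.387% of windows. It lies in the later of the gene's start regions, known as the p53-responsive promoter. Windows were found for 8 of the 10 members, all but CDKN1C and GADD45A (14 windows, several start sites for CDKN2C, MDM2 and DDB2), and no window of CDKN1A, CDKN1B, CDKN2C, CDKN2D, BTG1 or BTG2 held either kind of pair. The GC box GGGCGG (either strand) stood in 12 of the 14 windows and in 15786 of all 35116 windows. TATAAA (either strand) stood only in that of BTG1 among the members and in 11.5% of all windows. A match is a description of letters and does not show binding. Bases outside the windows were not searched, so the lack of a pair says nothing about elements further away.

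In MM6, MDM2 had 15.4 and 9.58 RPKM with shM14, against 11.6 and 7.84 RPKM with shNS. The groups overlapped (change 0.32, 95% interval -0.37 to 1.01, limma adjusted p = 0.68). DDB2 had 9.39 and 12.7 RPKM in MM6 shM14, against 12.4 and 13.04 RPKM in MM6 shNS, again with overlap (change -0.20, 95% interval -0.64 to 0.24, limma adjusted p = 0.69). The MM6 estimates had the NB4 signs, but their intervals include 0.

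GADD45A, a stress-induced gene whose product binds PCNA and p21, did not pass in either line. It had 9.11 and 10.2 RPKM in NB4 shM14, against 10.4 and 11.8 RPKM in NB4 shNS (change -0.18, 95% interval -0.39 to 0.03, limma adjusted p = 0.12). In MM6 it had 14.7 and 3.33 RPKM with shM14, against 10.4 and 2.81 RPKM with shNS. The groups overlapped, with replicate 1 several times replicate 2 for both hairpins (change 0.32, limma adjusted p = 0.90).

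**Figure D2:**
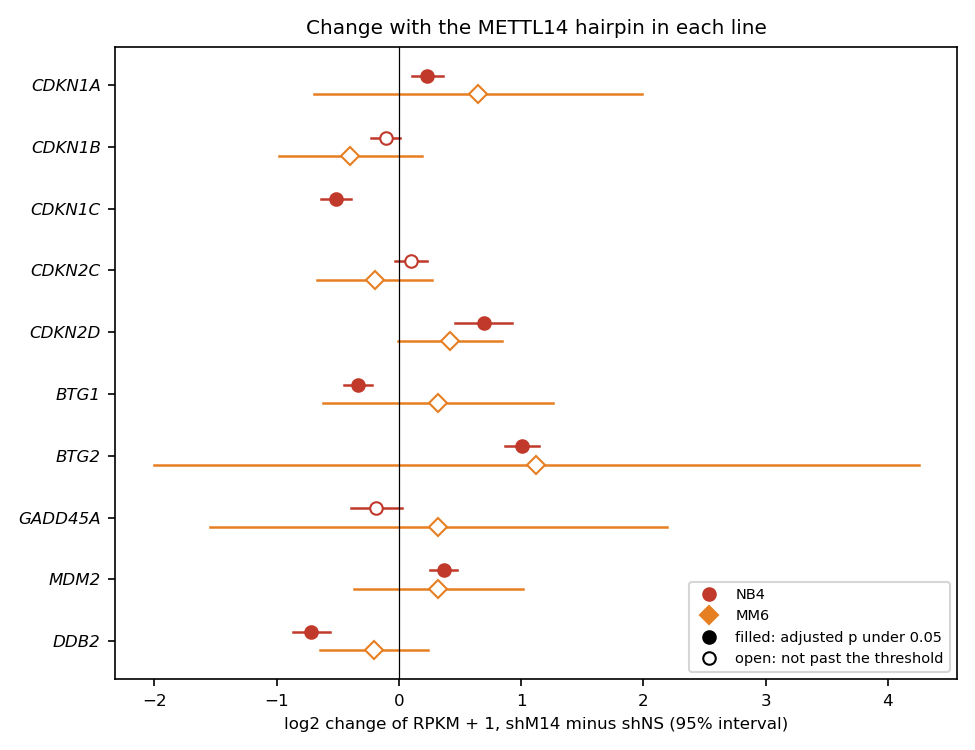
Change of each member on the log2(RPKM + 1) scale (horizontal axis), shM14 minus shNS, with 95% intervals of limma; circles are NB4, diamonds MM6, and filled symbols passed an adjusted p of 0.05. In NB4, 7 members are filled, from -0.72 for DDB2 to 1.01 for BTG2, and none is filled in MM6; CDKN1C was not tested in MM6.

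The replicate gap in MM6 was concentrated in some members. In MM6 shNS, replicate 1 was 12-fold replicate 2 for BTG2, 3.69-fold for GADD45A, 2.28-fold for CDKN1A, 1.77-fold for BTG1 and 1.48-fold for MDM2. In MM6 shM14 the same ratios were 4.67, 4.40, 2.55, 1.89 and 1.61. For BTG2, only 0.0841% of tested genes in MM6 shNS and 0.311% in MM6 shM14 had a wider gap between the libraries. For CDKN1B, CDKN2C and DDB2, replicate 1 was the lower library of both MM6 groups. A list of 24 immediate early genes, which cells induce within minutes of a stimulus, was added after the values were seen. Its median difference, replicate 1 minus replicate 2, was 2.26 in MM6 shM14 and 2.39 in MM6 shNS on the log2 scale, against -0.13 and -0.06 for all tested genes. In NB4, 12 of 21 of them rose with shM14 and 2 fell, where 22.1% of all tested genes rose and 25.2% fell. The list's differences between the NB4 replicates were -0.02 in shM14 and -0.03 in shNS. The part of this gap in the MM6 values of the members was not tested.

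Among libraries with the same number, the members had the following folds of shM14 over shNS in MM6, 1 library against 1 and without a test. BTG2 was 1.40-fold at number 1 and 3.582-fold at number 2. CDKN1A was 1.69-fold and 1.51-fold, BTG1 1.31-fold and 1.22-fold, GADD45A 1.41-fold and 1.19-fold, and MDM2 1.33-fold and 1.22-fold. CDKN2D was 1.13-fold and 1.77-fold, and CDKN1C 2.63-fold and 3.36-fold. CDKN1B was 0.669-fold and 0.833-fold, DDB2 0.757-fold and 0.972-fold, and CDKN2C 0.749-fold and 1.01-fold. Thus 7 of 10 members were higher and 2 lower at both numbers, where 71.9% of tested genes had the same direction at both. METTL14 itself was 0.523-fold and 0.490-fold. The labels do not state that a number marks a shared culture, day or batch.

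**Figure D3:**
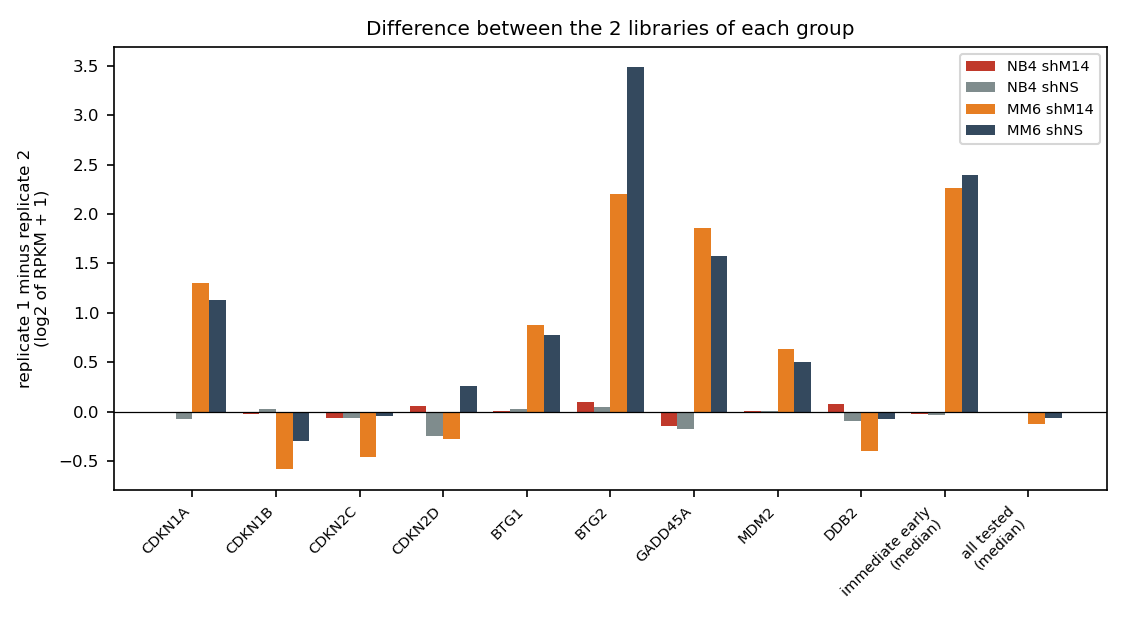
Difference between replicate 1 and replicate 2 (vertical axis, log2 of RPKM + 1) for 9 members, for the median of 24 immediate early genes and for the median of all tested genes, in each group. The NB4 bar furthest from 0 is that of CDKN2D in shNS, at -0.25, whereas BTG2 reaches 2.20 in MM6 shM14 and 3.49 in MM6 shNS.

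Over both lines, CDKN2D passed. In a limma model of line and hairpin over all 8 libraries, its change was 0.56 (SE 0.11, adjusted p = 0.017), and its shM14 libraries were higher than each control of the same line in both lines. This was 1 of 10 members, where 11.9% of 12804 tested genes passed, 4.8% upwards and 7.1% downwards. The call was lost without any 1 of the 4 NB4 libraries, with adjusted p of 0.065 and 0.064 without shM14 replicates 1 and 2 and of 0.057 and 0.0504 without shNS replicates 1 and 2. DDB2 had a common change of -0.46 (limma adjusted p = 0.056) and MDM2 one of 0.34 (limma adjusted p = 0.18), neither past the threshold. With the replicate block, MDM2 and BTG2 passed besides CDKN2D (limma adjusted p = 0.025, 0.028 and 0.039), as did 1452 genes. DDB2 passed with voom on recovered reads (adjusted p = 0.028), with median-of-ratios scaling (0.048), with a filter of 5 RPKM (0.0495) and without MM6 shM14 replicate 2 (0.0099).

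The change differed between the lines for CDKN1C. MM6 change minus NB4 change was 0.96 (SE 0.16, adjusted p = 0.035) in the limma interaction model over 8 libraries, 1 of 10 members, where 2.92% of tested genes passed, 1.53% upwards and 1.39% downwards. CDKN1C passed the filter of that model only through the NB4 shNS libraries. The call was lost without either NB4 shM14 library (adjusted p = 0.21 and 0.19) and without either MM6 shNS library (0.0545 and 0.073), and without either NB4 shNS library the gene was not tested. It was also lost with a pseudocount of 0.1 (0.061) and with voom (0.0505). For DDB2 the difference was 0.52 (95% interval 0.07 to 0.97, adjusted p = 0.20), and it passed only without MM6 shM14 replicate 1 (0.041). For BTG1, which fell in NB4 and had a positive mean change in MM6, the difference was 0.65 (95% interval -0.45 to 1.75, adjusted p = 0.50), and for BTG2 it was 0.12 (95% interval -3.65 to 3.89, adjusted p = 0.98). The remaining members had adjusted p of 0.49 or more. With the replicate block, CDKN1C and BTG1 passed (limma adjusted p = 0.013 and 0.026), as did 1143 genes.

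Around the members, the list of regulators of the p53 response held genes that moved either way in NB4. Of its 10 tested genes, 2 rose and 2 fell, where 22.1% of all tested genes rose and 25.2% fell. Its median was -0.02, against -0.01 for all tested genes. ATM, the kinase that signals DNA breaks, fell by 0.22 on the log2 scale, and MDM4, the relative of MDM2, by 0.20 (limma adjusted p = 0.017 and 0.028). ATR, a kinase related to ATM (0.19), and the acetyltransferase EP300 (0.32) rose (limma adjusted p = 0.022 and 0.0056). In MM6, 0 of 11 passed in limma, with a median of -0.09.

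Other p53 targets moved in both directions. Of 20 tested targets of arrest and repair in NB4, 6 rose and 5 fell (median 0.04), where 22.1% of all tested genes rose and 25.2% fell. KIAA0247, also named SUSD6, rose by 0.42, RPS27L by 0.41 and C12orf5, which encodes the fructose bisphosphatase TIGAR, by 0.39 (limma adjusted p = 0.0083, 0.013 and 0.0067). TRIM22, which is also an interferon-induced gene, fell to 27.1 RPKM in NB4 shM14, against 78.8 RPKM in NB4 shNS (change -1.51, limma adjusted p = 2.8e-04). Of 15 tested targets of cell death, 7 rose and 3 fell (median 0.19). TNFRSF10B, a death receptor for TRAIL, averaged 29.6 ± 0.795 RPKM in NB4 shM14 and 16.4 ± 0.438 RPKM in NB4 shNS (SD, n = 2 each; change 0.81, limma adjusted p = 6.1e-04). BAK1 rose by 0.47, AEN by 0.32 and the death receptor gene FAS fell by 0.58 (limma adjusted p = 0.0018, 0.0052 and 0.0030). In MM6, 0 of 21 and 0 of 15 passed in limma, with medians of 0.00 and 0.09; TNFRSF10B was at 0.58 (adjusted p = 0.44).

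The kinases and cyclins that CDK inhibitors act on were mixed. Of 26 tested cyclins, CDKs, RB and E2F genes in NB4, 11 rose and 5 fell (median 0.15). Of all tested genes in NB4, 22.1% rose and 25.2% fell. CCNA1, the cyclin of male germ cells and some leukaemias, rose by 0.97, CCNE1 by 0.48 and the phosphatase CDC25A by 0.39 (limma adjusted p = 8.5e-04, 0.0018 and 0.0031). CCND1, the D-type cyclin that INK4 proteins oppose, had 4.65 and 5.04 RPKM in NB4 shM14, against 8.26 and 7.99 RPKM in NB4 shNS (change -0.64, limma adjusted p = 0.0013). CDK6, the INK4 target kinase, fell by 0.32 in NB4 (limma adjusted p = 0.0049) and was at -0.60 in MM6 (limma adjusted p = 0.22), where 0 of 24 genes of the list passed in limma. Over both lines CDK6 and CDK2 fell and CCNE1 rose (limma adjusted p = 0.027, 0.024 and 0.024). These were 2 lower and 1 higher of 26 tested genes, where 7.1% of all tested genes fell and 4.8% rose. CCNA1 differed between lines, with a change of -0.59 in MM6 (limma interaction adjusted p = 0.028). CCND1 differed too (0.031), but its RPKM in MM6 was near 0. Such a difference passed for 2.92% of all tested genes.

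Of 16 tested proliferation markers in NB4, 5 rose and 0 fell (median 0.05), among them RRM2 (0.52), CENPA (0.48), MKI67 (0.48) and CCNB1 (0.26; limma adjusted p = 0.0013, 0.0016, 0.0017 and 0.011). Of all tested genes in NB4, 22.1% rose and 25.2% fell. In MM6, 0 of 16 passed in limma (median -0.05). Of 6 tested genes of the BTG/TOB family and its partners, 2 rose in NB4, the deadenylase CNOT7 (0.22) and the methyltransferase PRMT1 (0.26; limma adjusted p = 0.020 and 0.013), and 0 of 6 passed in MM6. Of 5 tested genes listed with GADD45 and the DDB complex, DDB1, the partner of DDB2, rose by 0.21 (limma adjusted p = 0.033), and CUL4A (-0.15) and the repair gene XPC (-0.19) fell (limma adjusted p = 0.039 and 0.036). GADD45B, the paralog of GADD45A, was at -0.08 (limma adjusted p = 0.36). CDKN3, a phosphatase that acts on CDKs, and CDKN2AIP, whose product binds ARF, did not pass in NB4 (0.16 and 0.01; limma adjusted p = 0.11 and 0.82).

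**Figure D4:**
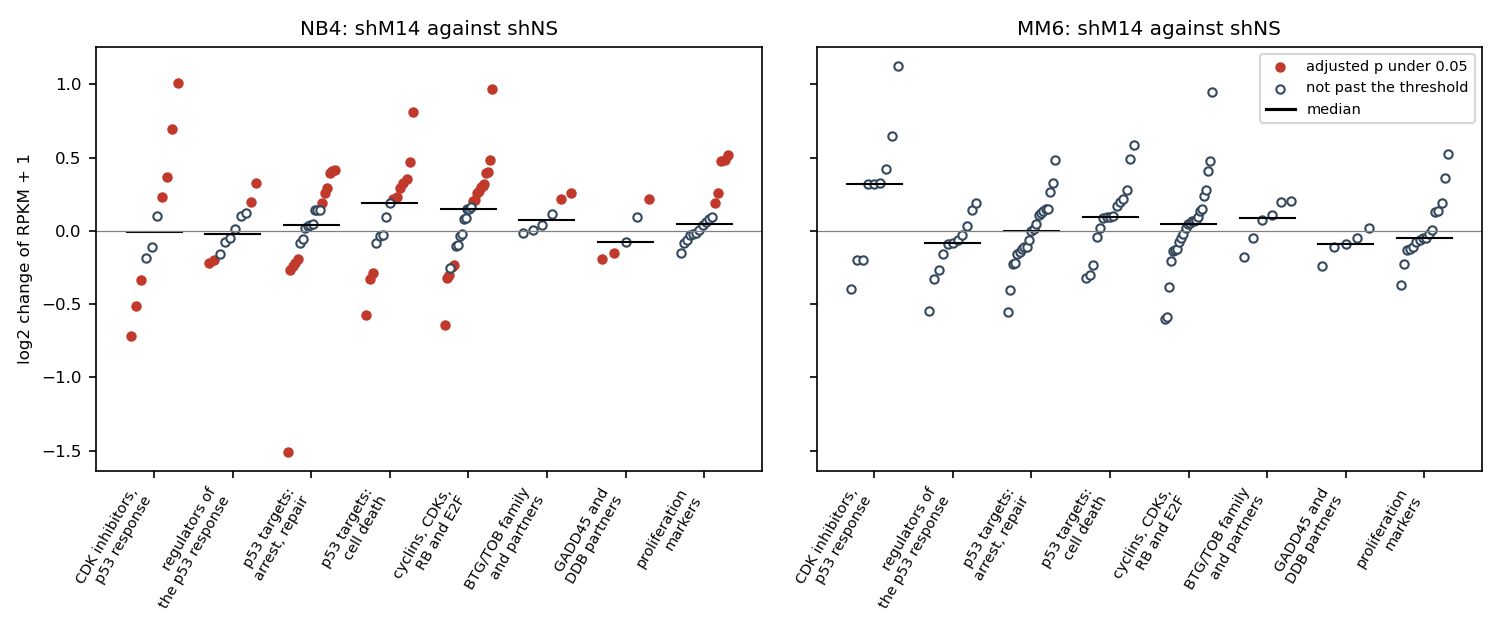
Change on the log2(RPKM + 1) scale (vertical axis) of each tested gene of the 10-member set and of 7 lists in NB4 (left) and MM6 (right); filled points passed an adjusted p of 0.05 and black lines are medians. In NB4, filled points lie on both sides of 0 in most lists, from -1.51 for TRIM22 to 1.01 for BTG2, and no point is filled in MM6.

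Genes with the pattern closest to each member were ranked by the root mean square difference of log2(RPKM + 1), centred on each gene's mean, over the 8 libraries and 8421 candidate genes. The closest to BTG2 was KLF2 (0.45, against a spread of 1.73 for BTG2 itself about its mean). KLF2 had 87.1 and 6.62 RPKM in MM6 shM14, against 40.1 and 2.00 RPKM in MM6 shNS, so it shared the replicate gap. The closest to CDKN1A was ANXA1 (0.19, against 0.73), to CDKN2C AKR7A2 (0.10, against 1.02), to GADD45A H1F0 (0.21, against 0.70) and to CDKN1C LTA4H (0.05, against 0.41). For CDKN2D it was TBC1D7 (0.15, against 0.52), for BTG1 YPEL5 (0.13, against 0.64), for DDB2 TADA2B (0.11, against 0.34), for MDM2 ORAI2 (0.09, against 0.37) and for CDKN1B ZNF830 (0.07, against 0.28). The libraries share lines and hairpins, so this is a description of likeness alone. It need not hold for the hairpin change: in NB4, ANXA1 was lower in both shM14 libraries than in both shNS libraries, opposite to CDKN1A. The likeness of LTA4H to CDKN1C holds for the log2(RPKM + 1) scale, which understates changes of low genes. Over the 8 libraries, CDKN1C ran from 0.162 to 1.74 RPKM and LTA4H from 31.8 to 72.9 RPKM.

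GGACT, the commonest core of the m6A consensus, was counted in the longest protein-coding transcript of each gene in GENCODE 29. CDKN2C held 6 in 2904 bases, DDB2 3 in 1870, BTG2 3 in 2712, BTG1 5 in 4680, CDKN1A 2 in 2267, MDM2 9 in 12633, CDKN1C 1 in 1936 and CDKN1B 1 in 2657. CDKN2D (1422 bases) and GADD45A (1496 bases) held 0. The median over 10114 matched genes was 0.925 per kilobase, and 92.2% of them held at least 1. CDKN2C had the densest motif of the members (2.07 per kilobase), followed by DDB2 (1.60 per kilobase). The counts hold for the longest transcript alone, and a link of the motif to the changes was not tested. No m6A measurement was used here.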

How the data were processed

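Gene-level tables of 8 poly(A) RNA libraries were used, 2 for each hairpin in NB4 and MM6. Per the labels, a directional kit was used on 100 ng of RNA, read as single-end 50 bp. The aligner, counter, build and the test behind the deposited p-values are steps that no source used here gives.

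The RPKM values per library were computed by the authors; the unit was worked out from the values. The signal columns deposited by the authors are means over a group of size-factor-scaled reads. The deposited ratio is the authors' fold change, the log2 column its deposited log2, and the p-value columns are the authors' own with their adjustment. Whole reads were recovered from RPKM and group means, 100% of values within 0.01 of a whole number.

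Genes with at least 1 RPKM in at least 2 libraries of a fit entered the test, which was limma 3.58.1 (R 4.3.3) on log2(RPKM + 1), two-sided, adjusted over all tested genes; intervals are 95%. The scripts were tested on simulated data. Tables and figures used Python 3.11.15, pandas 2.3.3 and matplotlib 3.10.9. The named genes were METTL14, all members, up to 4 genes of each list with the smallest p in each line (part of these only as counts) and the closest gene to each member. One gene of the list of p53 regulators is not reported here. Members and lists were chosen with earlier results of these data known. The alternatives were another pseudocount, other filters, median-of-ratios scaling, the replicate block, voom, 1 model of all groups and leaving out each library. The immediate early list was added after the values were seen. List symbols were matched by gene ID through RefSeq (GRCh38.p14).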

Additional observations from a re-analysis of the deposited data

Results flagged for a closer look

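The knockdown change of CDKN1C differed between the lines by the interaction test (MM6 change minus NB4 change 0.96 on the log2(RPKM + 1) scale, limma adjusted p = 0.035). Its mean RPKM was 0.706 with shM14 and 0.246 with shNS in MM6, and 0.881 with shM14 and 1.69 with shNS in NB4. All of these rest on 15 to 178 reads per library, and the gene passed the filter only through the NB4 shNS libraries. The call was lost without either NB4 shM14 library (adjusted p = 0.21 and 0.19) and without either MM6 shNS library (0.0545 and 0.073). It was also lost with a pseudocount of 0.1 (0.061) and with voom (0.0505).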

How the results depend on the processing

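Replicates had no stated pairing: same-number deviations correlated at 0.08 across 11531 genes in NB4 and at 0.70 across 11895 in MM6, with 2 numbers per line. With the replicate block, 8 members (GADD45A added) and 5241 genes passed in NB4. In MM6, 1 member (CDKN1A, SE 0.11, limma adjusted p = 0.021) and 1405 genes passed, with METTL14 itself at 0.0089. Over both lines, 3 members (BTG2, limma adjusted p = 0.028, MDM2, 0.025, and CDKN2D, 0.039) and 1452 genes passed. In the difference, 2 members (CDKN1C, 0.013, and BTG1, 0.026) and 1143 genes passed. With 1 model of 4 groups, 3 members (CDKN2D, CDKN1C and DDB2) and 1658 genes passed in NB4, and 1311 genes in MM6. In MM6, the main count of 9 genes became 0 without a filter, 4 with a filter of 5 RPKM, 3 with median-of-ratios scaling and 39 with voom. Over both lines, 2 members passed with a filter of 5 RPKM (1349 genes), with median-of-ratios scaling (1787 genes) and with voom (2144 genes). In the difference, 0 members passed with a pseudocount of 0.1 (203 genes), with a filter of 5 RPKM (250 genes) and with voom (207 genes). Leaving out 1 library gave 6 members and 3049 to 4637 genes in NB4, 0 members and 5 to 23 genes in MM6, 0 to 2 members and 496 to 1926 genes over both lines, and 0 to 2 members and 5 to 742 genes in the difference.

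Signs turned for members that were not called. Over both lines CDKN1C was at 0.18 with a pseudocount of 0.1, and BTG1 at 0.022 with median-of-ratios scaling. When 1 library was left out, log2 changes in MM6 ranged from -0.0063 to 1.30 for CDKN1A, -0.43 to 0.030 for CDKN2C, -0.12 to 0.76 for BTG1, -0.62 to 2.87 for BTG2 and -0.60 to 1.25 for GADD45A. Over both lines they ranged from -0.18 to 0.072 for CDKN1C, -0.11 to 0.071 for CDKN2C, -0.25 to 0.10 for BTG1 and -0.35 to 0.39 for GADD45A. The differences between lines ranged from -0.24 to 1.067 for CDKN1A, -0.58 to 0.0028 for CDKN1B, -1.63 to 1.86 for BTG2, -0.42 to 1.43 for GADD45A and -0.36 to 0.27 for MDM2. No direction of a member in NB4 turned under the alternatives run. The cause of these shifts was not tested. The intervals given for MM6 hold for the model of that line alone.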
